A study of Mus musculus with 18 samples.

Results

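The comparison described here set mouse embryonic stem cells transfected with Foxd3 together with CA-NFATc3 against cells transfected with an empty vector. Its members are the 3 arrays labelled as overexpressing Foxd3 and CA-NFATc3 and the 3 arrays labelled as vector control, 6 of the 18 arrays of the series, chosen by those labels. All 4 transfected groups, each of 3 arrays, were cells of CGR8, an established mouse embryonic stem cell line, kept in GMEM with serum and LIF and given plasmids by lipofection. The groups beside the compared pair received Foxd3 alone or CA-NFATc3 alone. The remaining 6 arrays were of Foxd3fl/fl:Cre-ERT cells, in which both Foxd3 alleles can be cut out by a Cre recombinase activated by tamoxifen, of which 3 received DMSO, labelled as 0 days, and 3 received tamoxifen for 2 days. The labels call the arrays of a group biological replicates without saying that they came from separate cultures, so the p-values below measure the spread between these arrays, which may be partly technical. The labels name neither the plasmids' promoters nor the share of cells that took them up nor the time after transfection. All transfected cells came from 1 line, and a mean over a dish cannot tell a small change in every cell from a large one in some of them.

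Foxd3 is a forkhead transcription factor of the pluripotent epiblast and later of the neural crest. NFATc3 is a transcription factor that enters the nucleus when the phosphatase calcineurin, activated by calcium, removes phosphates from it, and it often binds DNA beside AP-1 factors. The prefix CA usually stands for a constitutively active form. Embryonic stem cells grown with LIF hold a naive pluripotent state with high Nanog, Klf4, Tbx3 and Prdm14. Cells that leave it pass through a primed epiblast state marked by Dnmt3b, Otx2 and Pou3f1.

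The deposited value of each probe set is a MAS5 signal, an intensity on a linear scale on which every array was brought to the same trimmed mean of 500. The median signal was 56.6 to 60.6 in the vector arrays and 59.3 to 67.1 in the arrays with both labels. Log2 signals of replicates correlated at r = 0.985 to 0.987 among vector arrays and 0.981 to 0.985 among arrays with both labels, across probe sets. The ratio of 3' to 5' signal of Actb, a sign of RNA integrity, was 2.31 ± 0.0340 (SD, n = 3) in vector arrays and 2.31 ± 0.0944 (SD, n = 3) with both labels. For Gapdh this ratio was 0.920 ± 0.0392 (SD, n = 3) in vector arrays and 0.912 ± 0.0227 (SD, n = 3) with both labels. The summed signal of 8 markers of embryonic stem cells was 97361 to 108894 in vector arrays and 88931 to 98743 with both labels, and all 8 were above 65.8 in every array. Afp, Ttr and Alb, markers of visceral endoderm and liver, were below 65.8 in all 12 transfected arrays, as were the blood cell markers Ptprc, Hba-a1 and Lyz2. The remaining blood marker, Cd68, reached 65.8 in some array of each transfected group. The summed signal of these 4 blood markers was 263 to 364 in vector arrays and 196 to 326 with both labels. The number of arrays limits the precision of every value below.

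Each gene was read from its probe set with the highest mean, and 11609 of 18193 genes were tested, those that reached a signal of 65.8, the median of all deposited values, in at least 3 of the 12 transfected arrays. Differences are on the log2(signal + 32) scale, both labels minus vector, with the SE of a limma fit to 3 arrays per group, and a gene was called at a Benjamini-Hochberg adjusted p under 0.05. Because 32 is added, differences of dim genes are understated, and every plain fold includes the added 32. For a group whose mean was under 65.8 an "at least" fold is given instead, the brighter group's mean signal over that of the dimmer group with its lower arrays raised to 65.8.

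The Foxd3 transcript itself went against the label. Its signals were 507, 419 and 404 in the vector arrays and 277, 210 and 214 in the arrays labelled with both plasmids. All 3 of the latter lay below all 3 vector arrays, a difference of -0.84 ± 0.13 (adjusted p = 0.000816), or 1.79-fold lower. The arrays labelled Foxd3 alone read 232, 244 and 236, whereas the CA-NFATc3 arrays read 463, 408 and 483. In the knockout cells, on independent arrays, the same probe set fell from 249, 204 and 205 with DMSO to 65.1, 9.55 and 19.7 with tamoxifen. Only 1 probe set reads Foxd3, and the labels do not say whether its target lies in the plasmid's transcript. The Nfatc3 transcript read 1606, 1591 and 1546 in vector arrays and 1849, 1795 and 1806 with both labels, a difference of 0.20 ± 0.06 that did not pass the test (adjusted p = 0.101; 0.0311 with replicate number as a blocking term). Neither transcript was thus called higher in the arrays whose label names it, and the group is called the double-label arrays below, for the arrays labelled Foxd3 and CA-NFATc3.

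In the double-label arrays 559 of the 11609 genes were called, 4.82%, with 404 higher (3.48%) and 155 lower (1.34%) than in vector arrays. The rises were the larger changes: 117 called genes were higher by at least 2-fold, and 2 were lower by as much. The median difference was 0.72 among genes called higher and -0.47 among those called lower. Genes called higher were also the dimmer ones, with a median vector signal of 313.5. It was 1425 for genes called lower and 538.1 over all genes tested. The vector mean was below 65.8 in 76 of the 404 and 0 of the 155, beside 844 of the 11609. The filter bears on this contrast, because a gene with such a mean was tested only if an array of another group reached 65.8. With replicate number as a blocking term, 1122 genes were called, 700 higher and 422 lower. With each array centred on its median, which moved the median of all genes from 0.00 to -0.06, 277 genes were called higher and 194 lower, so that the share of called genes that were higher went from 72.27% to 58.81%. Every fit without 1 array called fewer genes, from 322 without vector replicate 3 to 461 without double-label replicate 1. The number was 333 without double-label replicate 3 and 347 without double-label replicate 2. Such a fit has fewer arrays, so a loss of power and the influence of the array left out cannot be told apart. All 559 called genes had groups that did not overlap, as had 22.3% of all genes tested.

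**Figure D1:**
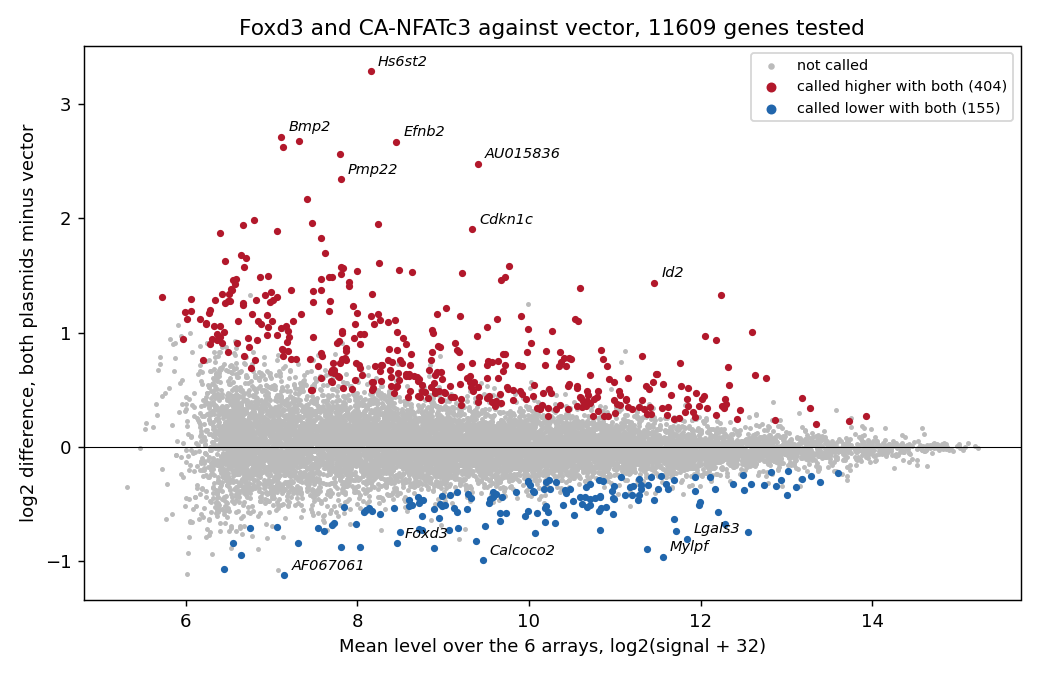
Log2 difference of each tested gene between the double-label and vector arrays, against its mean log2(signal + 32) over the 6 arrays. Red points are the 404 genes called higher and blue points the 155 called lower; rises reach 3.29 and sit mostly at low and middle levels, while falls go down to -1.12.

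The leading rise was Hs6st2, a sulphotransferase that adds sulphate to heparan sulphate chains at the cell surface, where they bind growth factors. Its signals were 70.7, 54.2 and 53.9 in vector arrays and 807, 873 and 904 in double-label arrays. The groups were far apart relative to the spread within either, with a difference of 3.29 ± 0.15 (adjusted p = 5.59e-09), at least 12.8-fold. Its 3 other probe sets were too dim to be tested, with means of at most 36.0 in double-label arrays, and averaging all 4 gave 1.16 (adjusted p = 0.0016). Efnb2, a membrane ligand of Eph receptors with a role in boundary formation and blood vessels, rose from 86.5, 132 and 106 to 920, 619 and 1087. That is a difference of 2.67 ± 0.21 (adjusted p = 2.57e-06), or 6.37-fold, and the second probe set of the gene was also called, at 1.63 ± 0.24 (adjusted p = 0.000946). The other 2 of its 4 probe sets were too dim to be tested, and the average of all was 1.19 (adjusted p = 0.000178). Col1a2, which encodes a chain of type I collagen, rose from 36.0, 3.34 and 42.4 to 283, 285 and 391. Its difference was 2.63 ± 0.26 (adjusted p = 1.45e-05), at least 4.86-fold, with 1.96 ± 0.27 in its second probe set (adjusted p = 0.000558). The remaining 1 of its 3 probe sets was too dim to be tested, and the average of all was 1.615 (adjusted p = 0.00029).

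The promoters of these leading genes are shown because NFAT and forkhead factors have known core motifs that can be looked for in them. Each is 250 bases before to 50 bases after the first listed start site, from RefSeq on GRCm38.p6, read 5′ to 3′ on the gene's strand; capitals mark matches, on either strand, to the NFAT core GGAAA or its extended form TGGAAA, which contains the core. The windows are chrX:51681553-51681852 on the minus strand for Hs6st2, chr8:8661193-8661492 on the minus strand for Efnb2 and chr6:4505368-4505667 on the plus strand for Col1a2.
Hs6st2: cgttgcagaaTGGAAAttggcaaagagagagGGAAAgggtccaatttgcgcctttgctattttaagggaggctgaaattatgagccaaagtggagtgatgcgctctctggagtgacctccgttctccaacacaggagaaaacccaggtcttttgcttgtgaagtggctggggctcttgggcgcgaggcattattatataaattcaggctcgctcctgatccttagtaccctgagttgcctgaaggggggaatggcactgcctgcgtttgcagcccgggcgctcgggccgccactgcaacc
Efnb2: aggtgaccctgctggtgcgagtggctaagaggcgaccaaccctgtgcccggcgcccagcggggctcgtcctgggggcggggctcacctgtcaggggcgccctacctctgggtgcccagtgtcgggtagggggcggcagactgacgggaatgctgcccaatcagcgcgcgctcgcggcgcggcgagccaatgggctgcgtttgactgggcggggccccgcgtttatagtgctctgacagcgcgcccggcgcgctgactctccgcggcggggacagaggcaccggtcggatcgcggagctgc
Col1a2: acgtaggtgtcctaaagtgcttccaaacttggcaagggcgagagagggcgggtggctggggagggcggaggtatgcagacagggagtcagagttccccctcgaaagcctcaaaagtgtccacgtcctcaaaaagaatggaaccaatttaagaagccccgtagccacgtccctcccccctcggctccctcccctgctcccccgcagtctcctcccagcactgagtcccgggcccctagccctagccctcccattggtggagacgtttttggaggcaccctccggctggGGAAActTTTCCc
Hs6st2 held 2 matches to the core, 1 of them extended, Col1a2 held 2 and Efnb2 held 0 of these letters in this window. Over the 9412 tested genes with a window, 57.7% held the core, beside 57.8% of the 315 windows of genes called higher and 56.3% of the 126 of genes called lower. The extended form stood in 19.7% of windows of genes called higher, 14.3% of those called lower and 15.7% of all. The forkhead motif TGTTTAC stood in 1.59%, 4.76% and 2.44% of them, and the AP-1 motif TGANTCA in 4.44%, 3.17% and 4.49%. These are counts of letters on both strands, not of bound sites.

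Bmp2, a secreted bone morphogenetic protein, read 24.7, 22.3 and 19.4 in vector arrays and 314, 391 and 275 in double-label arrays. It moved from below the signal needed for testing in all vector arrays to well above it in all others, by 2.72 ± 0.20 (adjusted p = 1.69e-06), at least 4.96-fold. Col5a2, a chain of type V collagen, read 29.4, 29.8 and 34.9 in vector arrays and 315, 340 and 480 in double-label arrays. Its difference was 2.68 ± 0.24 (adjusted p = 8.87e-06), at least 5.75-fold. Pmp22, a membrane protein of peripheral myelin, rose from 47.3, 67.8 and 91.8 to 557, 390 and 481, a 5.07-fold change. Cdkn1c, an imprinted inhibitor of cyclin-dependent kinases, rose from 267, 271 and 380 to 1375, 904 and 1466, by 1.91 ± 0.18 (adjusted p = 1.28e-05). Each of these genes had 3 double-label arrays above its highest vector array, as the choice of the largest rises required.

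Rgs5, a regulator of G protein signalling known from pericytes, read 74.3, 39.2 and 37.6 in vector arrays and 328, 307 and 360.0 in double-label arrays, at least 4.83-fold. Nptx1, a secreted neuronal pentraxin, read 34.5, 46.8 and 32.8 against 191, 193 and 310.0, at least 3.52-fold. Hoxb2, a homeobox gene of the hindbrain, read 6.62, 22.8 and 34.8 against 211, 118 and 188, at least 2.62-fold. Of these genes, only Rgs5 passed 65.8 in any vector array, in replicate 1. Ms4a4d and AU015836 rose by 2.57 and 2.48, Pkdcc, which encodes a secreted kinase, by 1.96, and Fndc3c1 by 1.95. Cnr1, the cannabinoid receptor of neurons, rose by 1.99 ± 0.23 (adjusted p = 7.7e-05) in the probe set used, whereas its other probe set, with means of 38.4 and 55.6, differed by 0.34 ± 0.29 (adjusted p = 0.643). All 15 of these leading rises kept their call in each of the 18 alternative settings, the 6 fits without 1 array included, but not their size: with averaged probe sets Rgs5 differed by 1.19 in place of 2.17 and Cnr1 by 1.17 in place of 1.99.

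**Figure D2:**
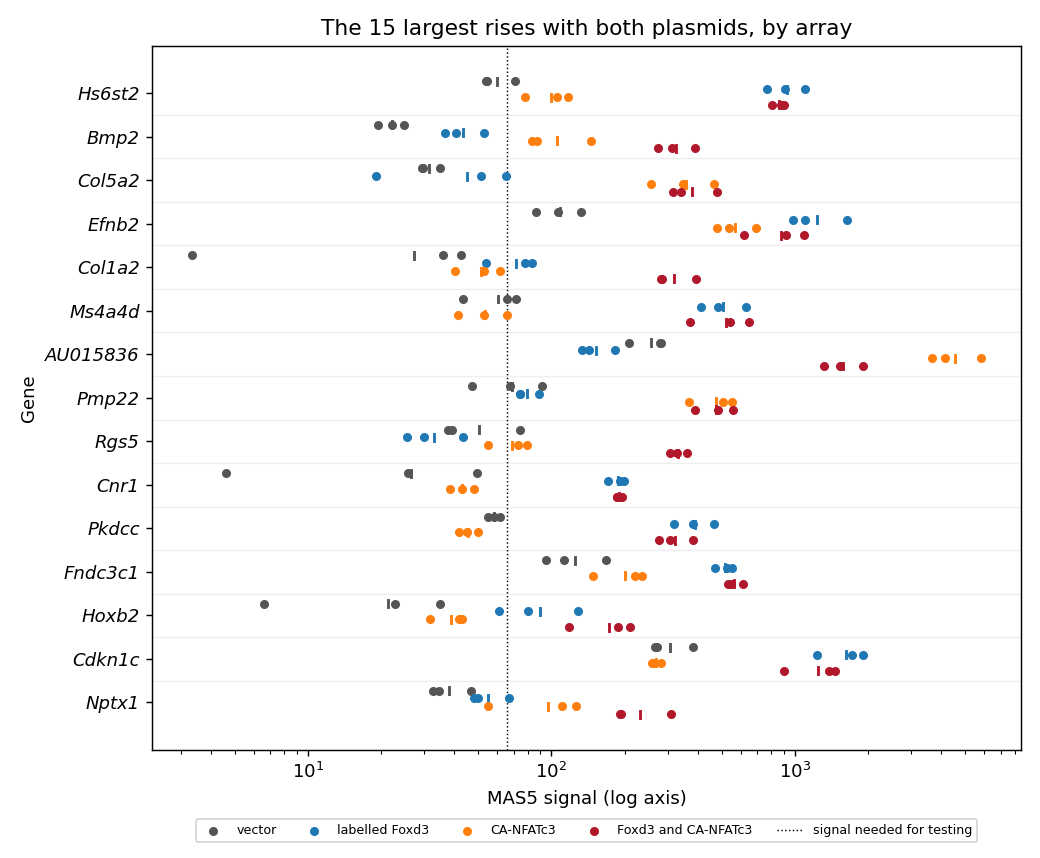
MAS5 signal of each array, on a log axis, for the 15 genes with the largest rises, in the 4 transfected groups; bars mark group means and the dotted line the signal of 65.8 needed for testing. Every double-label point lies above every vector point of its gene, as the choice of genes required. The points of arrays labelled Foxd3 or CA-NFATc3 alone lie near the double-label points for some genes and near vector for others.

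The leading rises differed in how the double-label arrays stood to the arrays of each plasmid alone. These comparisons share the double-label arrays, so each is given by its own values. Against the arrays labelled Foxd3, 38 genes were called (0.327%), 37 of them higher (0.319%) and 1 lower (0.00861%) in the double-label arrays; with the replicate block 96 were called. Against the CA-NFATc3 arrays, 711 were called (6.12%), 283 higher (2.44%) and 428 lower (3.69%) in the double-label arrays; with the block 1258 were called. For comparison, 334 genes (2.88%) were called in the arrays labelled Foxd3 against vector and 680 (5.86%) in the CA-NFATc3 arrays against vector. With the block these counts were 783 and 1104.

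Bmp2, Col1a2, Rgs5 and Nptx1 were higher in the double-label arrays than in either single-plasmid group. Bmp2 read 52.7, 36.5 and 40.5 in arrays labelled Foxd3 and 87.2, 146 and 83.2 in CA-NFATc3 arrays, and the double-label arrays were higher by 2.25 (adjusted p = 2.41e-05) and 1.40 (adjusted p = 0.000385). Rgs5 was at most 79.6 in any array of the single-plasmid groups, and the double-label arrays exceeded them by 2.49 (adjusted p = 1.13e-05) and 1.85 (adjusted p = 3.38e-05). Col1a2 exceeded them by 1.76 (adjusted p = 0.00364) and 2.07 (adjusted p = 0.000113), and Nptx1 by 1.58 (adjusted p = 0.00444) and 1.04 (adjusted p = 0.0129).

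Hs6st2, Ms4a4d, Cnr1, Pkdcc, Fndc3c1 and Cdkn1c were higher in the double-label arrays than in CA-NFATc3 arrays and were not called against arrays labelled Foxd3. Hs6st2 read 769, 913 and 1103 with the Foxd3 label and 105, 77.8 and 117 with CA-NFATc3. Cdkn1c read 1714, 1232 and 1899 with the Foxd3 label and 282, 263 and 259 with CA-NFATc3. The double-label arrays exceeded the CA-NFATc3 arrays by 2.77 for Hs6st2 (adjusted p = 2.39e-08) and 2.06 for Cdkn1c (adjusted p = 4.07e-06). Col5a2 and Pmp22 showed the other order: Col5a2 read 19.1, 65.0 and 51.4 with the Foxd3 label and 256, 346 and 467 with CA-NFATc3, and the double-label arrays exceeded the former by 2.44 (adjusted p = 8.64e-05) and were not called against the latter (adjusted p = 0.911).

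AU015836 lay between: it read 142, 134 and 182 with the Foxd3 label, 1529, 1320.3 and 1903 in double-label arrays and 3652, 4147 and 5816 with CA-NFATc3. The double-label arrays were lower than the CA-NFATc3 arrays by 1.49 on the log2 scale, a difference of -1.49 ± 0.17 (adjusted p = 5.31e-05). S100g, a calcium-binding protein, was at most 1.57 in any vector array and read 33.3, 53.6 and 71.3 in double-label arrays, with a mean of 4063 in CA-NFATc3 arrays. It was called against vector, but its means lay under 65.8 in both groups, so no fold is given. The CA-NFATc3 arrays were at least 60.1-fold above the double-label arrays (adjusted p = 1.07e-10).

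The falls were smaller and reached genes of higher level. Mylpf, a light chain of muscle myosin, fell from 4498, 3964 and 4085 in vector arrays to 2413, 1958 and 2051 in double-label arrays, by 0.96 on the log2 scale (SE 0.11, adjusted p = 5.09e-05), or 1.94-fold. Lgals3, the carbohydrate-binding protein galectin-3, fell from 4141, 4856 and 5475 to 2611, 2628 and 2989.6, or 1.74-fold, and Inhbb, a subunit of inhibin and activin B, from 3706, 3421 and 3588 to 2145, 1881 and 1737, or 1.85-fold. These were bright genes in which the highest double-label array lay well below the lowest vector array, although the second probe set of Inhbb, with means of 157 and 129, differed by -0.26 (adjusted p = 0.586). Calcoco2, an autophagy receptor, fell from 1000, 853 and 1036 to 499, 315 and 647, a difference of -0.99 ± 0.18 (adjusted p = 0.00313). Tcea3, a transcription elongation factor, Serpinb6c, a serpin, 2210409E12Rik and Foxd3 itself fell by 0.75, 0.82, 0.88 and 0.84.

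The other 7 of the 15 leading falls lost their call in at least 1 alternative setting. AF067061 and Golga7b, the pair lower by at least 2-fold, read 129, 162 and 261 against 79.6, 44.6 and 72.7, and 88.1, 103 and 91.8 against 34.4, 19.7 and 31.3. AF067061 lost its call without vector replicate 3 or double-label replicate 2 (highest adjusted p = 0.101). Golga7b lost it whichever vector array was left out, without double-label replicate 2 or 3, and at an offset of 1 (highest adjusted p = 0.0858). Myo1f, an unconventional myosin, fell by 0.89 but not without vector replicate 3 (adjusted p = 0.0624), and Mapt, which encodes tau, by 0.87 but not when its probe sets were averaged (adjusted p = 0.0607). Arhgef10l was not called without vector replicate 2 or 3, without double-label replicate 2, or in a fit of the 6 compared arrays alone. Ttc29 lost it when vector replicate 1 or 3 was left out, or double-label replicate 2 or 3, and Baiap2, an adaptor of the actin cytoskeleton, when any array but vector replicate 2 was left out.

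**Figure D3:**
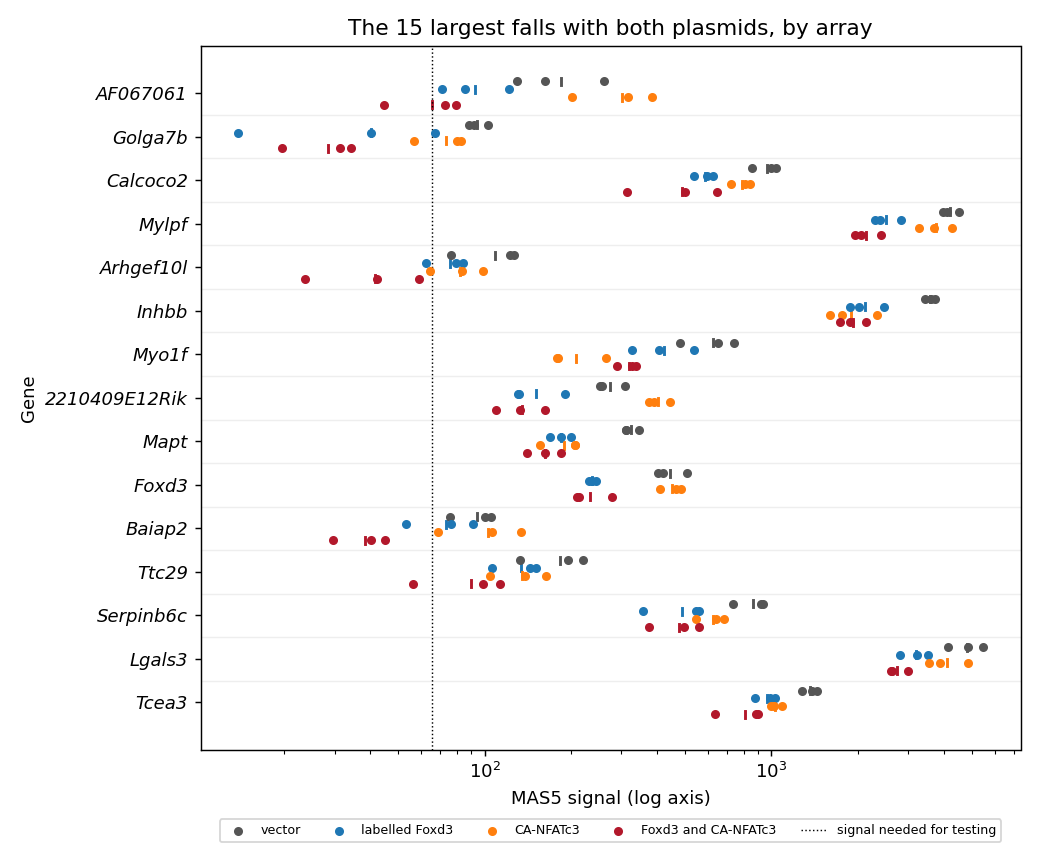
MAS5 signal of each array, on a log axis, for the 15 genes with the largest falls, drawn as for the rises. Every double-label point lies below every vector point of its gene, as the choice of genes required. Foxd3 is among the genes, and Mylpf, Lgals3 and Inhbb are the brightest.

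Counts of called members in this and the following gene lists stand beside 3.48% called higher and 1.34% called lower over all genes tested. Of 36 tested genes of naive and core pluripotency, 10 fell (27.8%), 1 rose (2.78%) and 25 did not pass the test. Among the last were Pou5f1, Sox2, Nanog and Klf4, and the median difference was -0.24 beside 0.00 over all genes. With the replicate block 19 fell and 1 rose; without vector replicate 3 or without double-label replicate 2, 6 fell. Pou5f1, the central factor, read 9650, 10678 and 10923 in vector arrays and 9168, 10055 and 10342 in double-label arrays, groups that overlapped (difference -0.08 ± 0.08, adjusted p = 0.667). Sox2 differed by -0.07 ± 0.06 (adjusted p = 0.642). Nanog differed by -0.29 ± 0.09 (adjusted p = 0.0798) and Klf4 by -0.24 ± 0.08 (adjusted p = 0.122); with the block both passed the test (adjusted p = 0.0385 and 0.0291).

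Tbx3, a T-box factor that sustains self-renewal, fell from 3875, 4603 and 4442 to 2467, 2648 and 2583. Its 3 double-label arrays lay within a narrow band below every vector array (-0.74 ± 0.08, adjusted p = 2.62e-05), and its second probe set was also called, at -0.76. Fbxo15, long used as a marker of the pluripotent state, fell from 5625, 6637 and 6531 to 3552, 3904 and 4293, or 1.59-fold. Prdm14, which represses primed-state and FGF signalling genes, fell from 1876, 1732 and 1919 to 1256, 1259 and 1362, or 1.42-fold. Tfcp2l1, a naive-state factor downstream of LIF, fell by 0.57 (SE 0.09, adjusted p = 0.00187), but was not called with averaged probe sets. Chosen after their values were seen, Nr5a2, a nuclear receptor of this network, fell by 0.42 and Dppa2 by 0.34, and Lin28a, the member that rose, differed by 0.44 but lost its call with centred arrays or averaged probe sets. The arrays labelled Foxd3 alone had means of 2535 for Tbx3 and 4145.5 for Fbxo15, and CA-NFATc3 arrays 3859 and 6392.

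**Figure D4:**
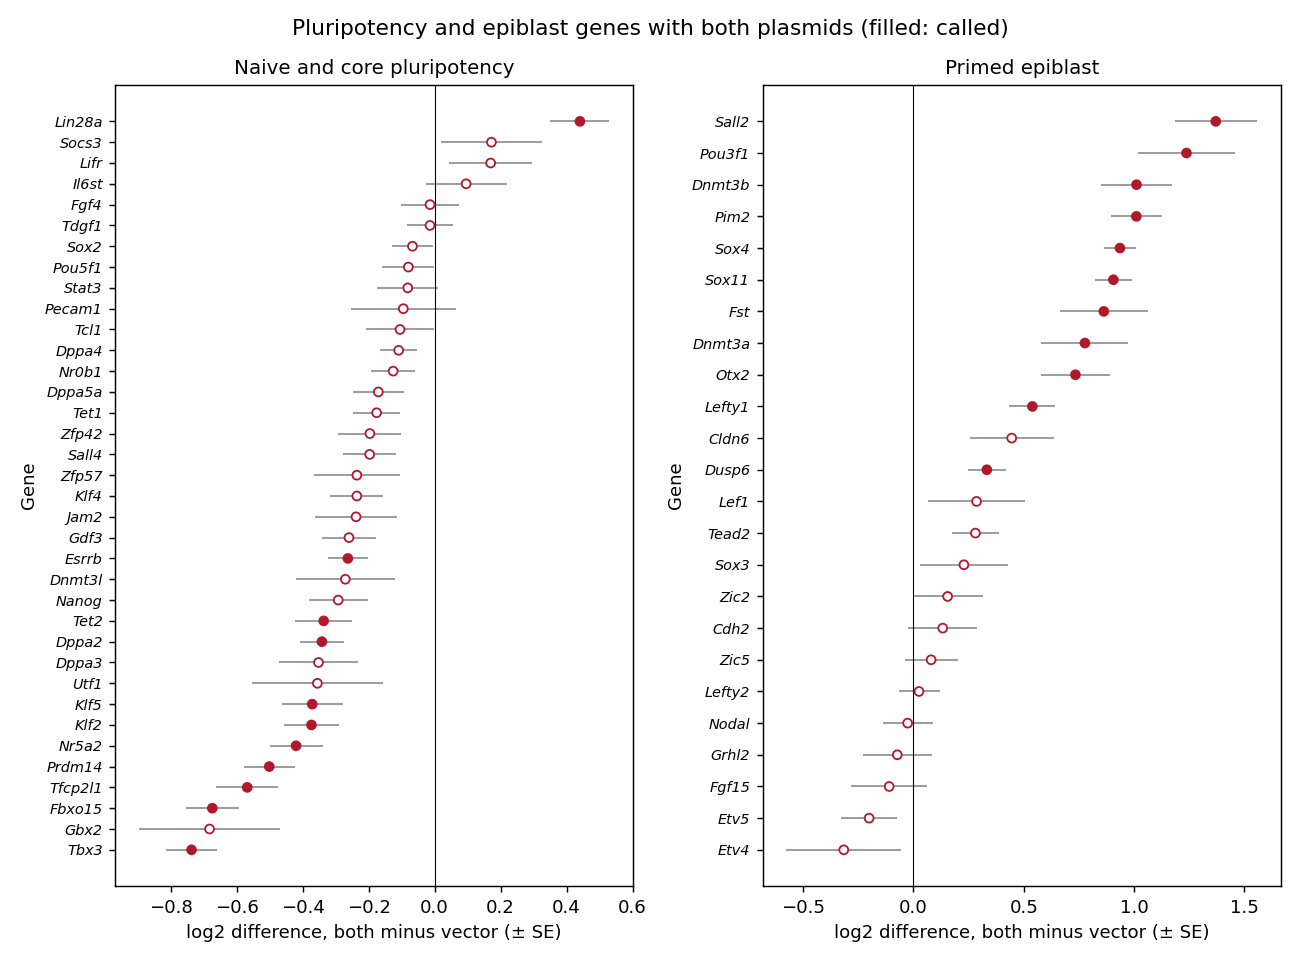
Log2 difference between double-label and vector arrays, with SE bars, of each tested gene of the naive and core pluripotency list (left) and the primed epiblast list (right). Filled points are called genes and open points are not called. Pou5f1 and Sox2 are open, Tbx3 and Fbxo15 are called lower, and Dnmt3b and Pou3f1 are called higher.

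Of 24 tested genes of the primed epiblast, 11 rose (45.8%), 0 fell and 13 did not pass the test at an adjusted p under 0.05 in the limma fit. The median difference was 0.31, and without 1 array 8 to 10 rose. Pou3f1, a POU factor of the epiblast and early neural plate, read 189, 113 and 96.8 in vector arrays and 484, 313 and 273 in double-label arrays, or 2.36-fold higher. Dnmt3b, a de novo DNA methyltransferase, read 5958, 3651 and 3784 against 9955, 7125 and 9602, or 2.02-fold. In both genes replicate 1 was the highest vector array, and it still lay under the lowest double-label array. Sall2, a zinc finger factor, rose 2.58-fold from 126, 69.4 and 72.6 to 297, 273 and 258, and Pim2, a survival kinase, 2.01-fold from 211, 208 and 234 to 461, 467 and 484. Averaging the probe sets of Pou3f1 ended its call (adjusted p = 0.0778). Of those chosen after their values were seen, Sox4 rose by 0.94, Lefty1, an inhibitor of nodal, by 0.54 and Otx2, an anterior epiblast factor, by 0.73, the last not without vector replicate 3.

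Against the CA-NFATc3 arrays 10 of the 24 primed genes were higher in the double-label arrays and 0 lower, and against arrays labelled Foxd3 0 were called in either direction by limma, with or without the block (0 higher and 3 lower at an unadjusted p under 0.05). Fgf5, a standard marker of the primed state, was not tested: its means were 20.5 in vector and 11.8 in double-label arrays. In the list of neuroectoderm 2 of 15 rose (13.3%), and with the block 4 rose and 1 fell. Sox11, a factor of neural progenitors, rose from 789, 700 and 697 to 1460, 1371 and 1344, by 0.91 ± 0.08 (adjusted p = 1.05e-05), in a gene that is also in the primed list. Msi1 was called at 0.49 and lost its call when vector replicate 1 or 3 was left out, or double-label replicate 1 or 2. Gata6, of primitive endoderm, differed by -0.06 (adjusted p = 0.922), and Cdx2, of trophectoderm, was not tested, with means of 14.9 and 5.57.

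DNA methylation enzymes included members of opposite direction. Of 12 tested, 2 rose (16.7%) and 1 fell (8.33%, or 2 genes with the block). Dnmt3a, the other de novo methyltransferase, read 1340, 863 and 1002 in vector arrays and 2419, 1516 and 1653 in double-label arrays, a 1.71-fold rise (adjusted p = 0.0331). Its 4 other probe sets differed by 0.75 to 0.97, and each was called. The call in the probe set used was lost without vector replicate 2 or 3 or double-label replicate 1 or 3, and with centred arrays. Tet2, which oxidises methylcytosine, fell by 0.34 (adjusted p = 0.0339) and lost its call when vector replicate 2 or 3 was left out, or any single double-label array.

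Signals of the BMP, nodal and activin family changed in both directions. Of 36 tested ligands, receptors, inhibitors and targets, 8 rose (22.2%) and 3 fell (8.33%), with a median difference of 0.10. Among the ligands Bmp2 rose as given above, Tgfb2 rose from 41.9, 40.5 and 38.4 to 154, 130 and 150, at least 2.20-fold, and Inhbb fell. Bmp4, the ligand closest in sequence to Bmp2 and chosen here after its values were seen, fell from 2501, 2146 and 2272 to 1526, 1306 and 1312, by 0.73 on the log2 scale (SE 0.11, adjusted p = 0.00108). Bmp4 had means of 1597 with the Foxd3 label and 2820 with CA-NFATc3, and the double-label arrays were called lower than the latter (adjusted p = 4.59e-05). Nodal, also named after its values were seen, read means of 2658 and 2618 and was not called (adjusted p = 0.937).

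Id genes encode inhibitors of basic helix-loop-helix factors and respond to BMP signals; Id2, Id3 and Id4 were called higher and Id1 was not. Id2 read 2001, 1324 and 1772 in vector arrays and 5621, 3377 and 5099 in double-label arrays. Replicate 2 was the lowest in both groups, and the groups stood 2.71-fold apart (1.44 ± 0.22, adjusted p = 0.000916). Its second brightest probe set was called too, at 1.64 (adjusted p = 0.00704). Id3 read 790, 511 and 765 against 1764, 1005 and 1596, again with replicate 2 lowest in both, and was called at 1.03 ± 0.28 (adjusted p = 0.0481); it was not called when any array but double-label replicate 2 was left out. With the block its adjusted p was 1.19e-05. Id4, named after its values were seen, rose by 0.78 ± 0.08, and Id1 differed by 0.75 ± 0.24 without passing the test (adjusted p = 0.0954; 0.000204 with the block).

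Of 24 genes of the WNT pathway 3 rose (12.5%) and 1 fell (4.17%, or 2 genes with the block), beside 3.48% and 1.34% of all genes tested. The receptor Fzd2 read 77.3, 74.4 and 82.2 in vector arrays and 294, 472 and 243 in double-label arrays, or 3.24-fold higher. It read 338 on average with the Foxd3 label and 78.1 with CA-NFATc3, and the double-label arrays differed from the latter by 1.73 (adjusted p = 0.00027). The secreted inhibitor Sfrp2 rose from 918, 1055 and 888 to 1662, 1809 and 1691, or 1.78-fold, and Apcdd1, a membrane-bound inhibitor, from 382, 292 and 286 to 733, 520 and 539, or 1.78-fold. Sfrp1, a relative of Sfrp2, fell by 0.51 (adjusted p = 0.0175), so that these inhibitors moved in opposite directions; its call was lost without vector replicate 2 or 3 or double-label replicate 1. In the list of retinoic acid genes 1 of 12 rose (8.33%). It was Crabp2, which carries retinoic acid in the cell and rose from 131, 89.6 and 136 to 451, 327 and 444. Its mean in CA-NFATc3 arrays was 1167. In the list of FGF and ERK feedback 2 of 23 rose (8.70%) and 1 fell (4.35%). Kitl, the ligand, rose from 115, 70.9 and 169 to 375, 300 and 421. Kit, its receptor, fell from 1498, 1774 and 1476 to 1076, 1249.8 and 982. Kit lost its call without vector replicate 2 or double-label replicate 3, and Dusp6, a phosphatase that limits ERK, at 0.33, without vector replicate 2 or 3 or double-label replicate 1 or 2.

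Of 23 semaphorins, plexins and other guidance genes 5 rose (21.7%) and 1 fell (4.35%), beside 3.48% and 1.34% of all genes tested. The median difference was 0.12, and it lay between -0.05 and 0.07 in 7 alternative settings. Unc5b, a netrin receptor, rose from 152, 110 and 90.7 to 334, 325 and 427, or 2.66-fold. Nrp1, a receptor for semaphorins and VEGF, read 29.6, 38.8 and 32.4 against 148, 72.5 and 174, at least 2.00-fold, and Sema4c 45.3, 93.5 and 52.0 against 196, 251 and 188, at least 2.83-fold. Their vector arrays were mostly under the signal needed for testing. Sema3c rose by 1.34 but not without vector replicate 3 or double-label replicate 3. Sema4a, the member that fell and named after its values were seen, lost its call whichever array was left out. Of 13 ephrins and Eph receptors 1 rose (7.69%), Efnb2 (2 with the block).

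Of 28 genes of heparan and chondroitin sulphate 4 rose (14.3%), Hs6st2 included, and 0 fell, beside 3.48% and 1.34% of all genes tested. Sulf1, an extracellular enzyme that removes sulphate from heparan sulphate, rose from 822, 843 and 965 to 1358, 1364 and 1686, or 1.65-fold. The chondroitin sulphotransferases Chst15 and Chst11 were called at 1.37 and 0.73. Without double-label replicate 3 these 2 lost their calls and 2 of the 28 rose; Chst11 was not called with averaged probe sets either. Chst15 also lost its call when vector replicate 1 or 2 was left out, or double-label replicate 1. Its means were 80.6 in vector, 262 in double-label, 320 in Foxd3-label and 26.6 in CA-NFATc3 arrays. For Chst15 the double-label arrays were at least 3.98-fold above the CA-NFATc3 arrays (adjusted p = 0.000115).

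Of 30 genes of fibroblast and mesenchymal matrix on the array 15 were tested. Of these 15, 7 rose (46.7%), 0 fell and 8 did not pass the test, with a median difference of 0.51. The untested members were too dim. Col5a2, Col1a2 and Col3a1 were below 65.8 in all vector arrays and were tested through groups in which they read higher. Without vector replicate 1 or without double-label replicate 3, 4 rose. Beside Col5a2 and Col1a2, Col3a1, of type III collagen, read 20.5, 21.6 and 12.2 in vector and 145, 101 and 124 in double-label arrays, at least 1.87-fold higher. Serpinh1, the chaperone that folds collagen, was brighter and rose from 330, 284 and 280 to 602, 603 and 716, or 2.04-fold. Double-label arrays exceeded those labelled Foxd3 in 4 of the 15 genes, and CA-NFATc3 arrays in 1, with 1 lower.

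The summed signal of 9 fibroblast markers, which feeder cells would carry, was 585 to 617 in vector arrays, 721 to 748 with the Foxd3 label, 794 to 989 with CA-NFATc3 and 1197 to 1335 in double-label arrays. Of these 9, Col1a1, Lum, Dcn and Postn were under 65.8 in every vector and every double-label array. Col1a2, Col3a1 and Mmp2 were the markers called higher. The sums were 3060 to 3635 with DMSO and 16319 to 18480 with tamoxifen. The part of such cells in the collagen rises was not tested, and fewer cells of a type and less RNA per cell cannot be told apart in these dishes.

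In the list of primitive and visceral endoderm 4 of 15 rose (26.7%) and 0 fell (1 fell with the block), with a median of -0.03. The members that rose were Col4a1 and Col4a2, chains of type IV collagen, Dab2, an endocytic adaptor, and Sparc, a matrix glycoprotein. Col4a1 rose from 289, 328 and 326 to 788, 788 and 732, or 2.32-fold, and Col4a2 from 137, 133 and 114 to 251, 271 and 298, or 1.91-fold. Both were lower than in CA-NFATc3 arrays, by -1.75 (adjusted p = 9.21e-07) and -1.29 (adjusted p = 0.000164). Dab2 read 35.7, 54.1 and 80.3 in vector and 144, 160 and 140 in double-label arrays. Sparc was called at 0.53 and lost its call without vector replicate 1 or double-label replicate 3.

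Of 22 actin and smooth muscle genes 6 rose (27.3%) and 1 fell (4.5%), the latter being Mylpf. Cald1, caldesmon, rose from 874, 1092 and 966 to 1892, 2188 and 2432, or 2.18-fold, and Tpm1, a tropomyosin, from 513, 568 and 522 to 896, 853 and 1030.2, or 1.69-fold. Cald1 was not called with averaged probe sets. The tropomyosins Tpm4 and Tpm2 rose too, by 0.60 and 0.54, named after their values were seen. Lpp, a focal adhesion protein, was called at 0.85 but not without vector replicate 3 or double-label replicate 3. Actb itself read means of 19897 and 19947 and differed by 0.01 (adjusted p = 0.982).

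YAP is a transcriptional co-activator that responds to cell shape and binds DNA through TEAD factors. Of 22 YAP and TEAD targets 5 rose (22.7%) and 0 fell, with a median of 0.17. Ccn1, a secreted matricellular protein, read 53.4, 83.1 and 73.1 in vector arrays and 388, 300 and 298 in double-label arrays, or 3.54-fold higher. Ccn2, the related connective tissue growth factor, read 484, 365 and 554 against 1388, 980.0 and 1704, or 2.75-fold. Ccn1 had a mean of 678 in CA-NFATc3 arrays, above the double-label arrays by 0.94 on the log2 scale (adjusted p = 0.00823). Cav1, of caveolae, rose to 81.6, 81.5 and 95.2 with a mean of 945 in CA-NFATc3 arrays, and its call was lost without vector replicate 2 or 3 or double-label replicate 2 or 3.

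Imprinted genes, which are expressed from 1 parental allele, rose in 7 of 18 tested (38.9%) and fell in 0, with a median of 0.27. Apart from Cdkn1c, Igf2, a growth factor, read 123, 76.0 and 57.6 in vector arrays and 372, 230.3 and 271 in double-label arrays, or 2.78-fold higher. Igf2 was lower than in CA-NFATc3 arrays, whose mean was 1008, by -1.69 (adjusted p = 0.000285). Rian and Meg3, noncoding RNAs of 1 imprinted cluster, rose from 2266, 2988 and 2780 to 4449, 4537 and 4347 and from 4533, 5168 and 5552 to 7365, 7518 and 8802. Their folds were 1.66 and 1.55, and the double-label arrays exceeded the CA-NFATc3 arrays by 0.56 (adjusted p = 0.00256) and 0.47 (adjusted p = 0.00324). The other rises were Gnas at 0.52, Peg3 at 0.45 and Grb10 at 0.45, named after their values were seen; none of the 3 was called with averaged probe sets, and Grb10 was not called without vector replicate 1 or 2 or double-label replicate 2 or 3. With centred arrays 5 of the 18 rose.

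No gene of calcineurin and NFAT signalling passed the test. Of 23 genes of calcineurin and NFAT 0 were called in the limma fit, 6 were higher and 1 lower at an unadjusted p under 0.05, and 4 rose with the block. Rcan1, which NFAT factors are known to induce, read 1192, 1137 and 1258 in vector arrays and 1432, 1384 and 1508 in double-label arrays, a difference of 0.26 ± 0.11 (adjusted p = 0.224). In CA-NFATc3 arrays its mean was 3702, and the double-label arrays were lower by 1.32 on the log2 scale (adjusted p = 2.35e-06). Nfatc1, Nfatc2 and Nfatc4 differed by -0.33, 0.14 and 0.13, and Src, a tyrosine kinase, by 0.03, with adjusted p of 0.538 or more.

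Of 19 immediate early and AP-1 genes 3 rose (15.8%) and 1 fell (5.26%), and with the block 5 rose and 2 fell. Jun, a subunit of AP-1, rose from 127, 158 and 156 to 300.0, 331 and 311, or 1.94-fold. Ier5 rose from 172, 155 and 151 to 365, 350.3 and 329, or 1.99-fold, and Jund by 0.43; neither was called with averaged probe sets. Atf3, a stress-induced factor, was called at -0.71 and lost its call whichever array was left out. Lgals1, another galectin, rose from 2582, 3429 and 3104 to 7646, 6761 and 8586, or 2.51-fold, while Lgals3 fell. In their list of annexins, S100 proteins and galectins 3 of 16 rose (18.75%) and 2 fell (12.5%), and 6 rose with the block. S100g was among the genes that rose, although its means in vector and double-label arrays lay under the signal needed for testing. It was tested through arrays outside the compared pair, and its mean was 4063 in CA-NFATc3 arrays. Anxa5, an annexin, was called at 0.62 but not without vector replicate 1 or double-label replicate 2 or 3.

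Of 15 interferon response genes 3 rose (20%) and 0 fell (1 fell with the block), and 1 rose without double-label replicate 2 or 3. Cxcl10, a chemokine induced by interferon, read 26.4, 23.4 and 27.7 in vector and 126, 176 and 94.5 in double-label arrays, at least 2.01-fold, and was higher than in either single-plasmid group, by 1.31 (adjusted p = 0.0157) and 1.32 (adjusted p = 0.00193). Gbp2, a guanylate-binding protein, rose at least 1.33-fold. Ifit2 was called at 0.67 and lost its call when any array but double-label replicate 1 was left out. The 3 genes were dim, and the median of the list was 0.03.

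The remaining lists are given by count, beside 3.48% called higher and 1.34% called lower over all genes tested. Some lay well above these shares. Called higher were 25% of tested neural crest genes, 25% of primitive streak genes and 18.18% of chemokine and cytokine genes. Among germline and 2-cell stage genes 16.67% were called lower. Others lay near the shares of all genes, such as cell cycle genes with 2.86% each way. Of 35 cell cycle genes 1 rose, Cdkn1c, and 1 fell (3 and 2 with the block). The latter was Ccnd3 at -0.43, which was not called without vector replicate 1, 2 or 3 or double-label replicate 2 or 3. Of 23 genes of the integrated stress and unfolded protein response 0 were called by limma (0 higher and 3 lower at an unadjusted p under 0.05; 4 fell with the block), and the median was -0.14. In each of the lists of p53 and apoptosis (21 genes), hypoxia and glycolysis (22), MHC class I presentation (15), cholesterol and fatty acid synthesis (24) and matrix metalloproteinases (13), 1 gene rose and 0 fell; with the block 3, 5, 1, 1 and 2 rose, and 1 fell, in the first. The genes were Ccng1, Egln3, B2m, Scd2 and Mmp2, and each lost its call in at least 2 of the 6 fits without 1 array. Of 18 germline and 2-cell stage genes 1 rose and 3 fell, of 27 integrin and adhesion genes 3 rose and 1 fell, of 19 trophectoderm genes 2 rose and 1 fell, and of 12 neural crest genes 3 rose and 0 fell. With the block 6 integrin and adhesion genes rose and 3 fell, and 2 trophectoderm genes fell. Several of these counts changed in fits without 1 array. Without vector replicate 2, 0 germline genes fell, and without vector replicate 3, 1 neural crest gene rose. Without vector replicate 1 or double-label replicate 2, 1 integrin gene rose. Beside these, of 11 chemokines and cytokines 2 rose (0 without double-label replicate 1 or 3), and of 4 genes of the primitive streak 1 rose, Kdr, which lost its call when vector replicate 2 or 3 was left out, or double-label replicate 1 or 3.

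**Figure D5:**
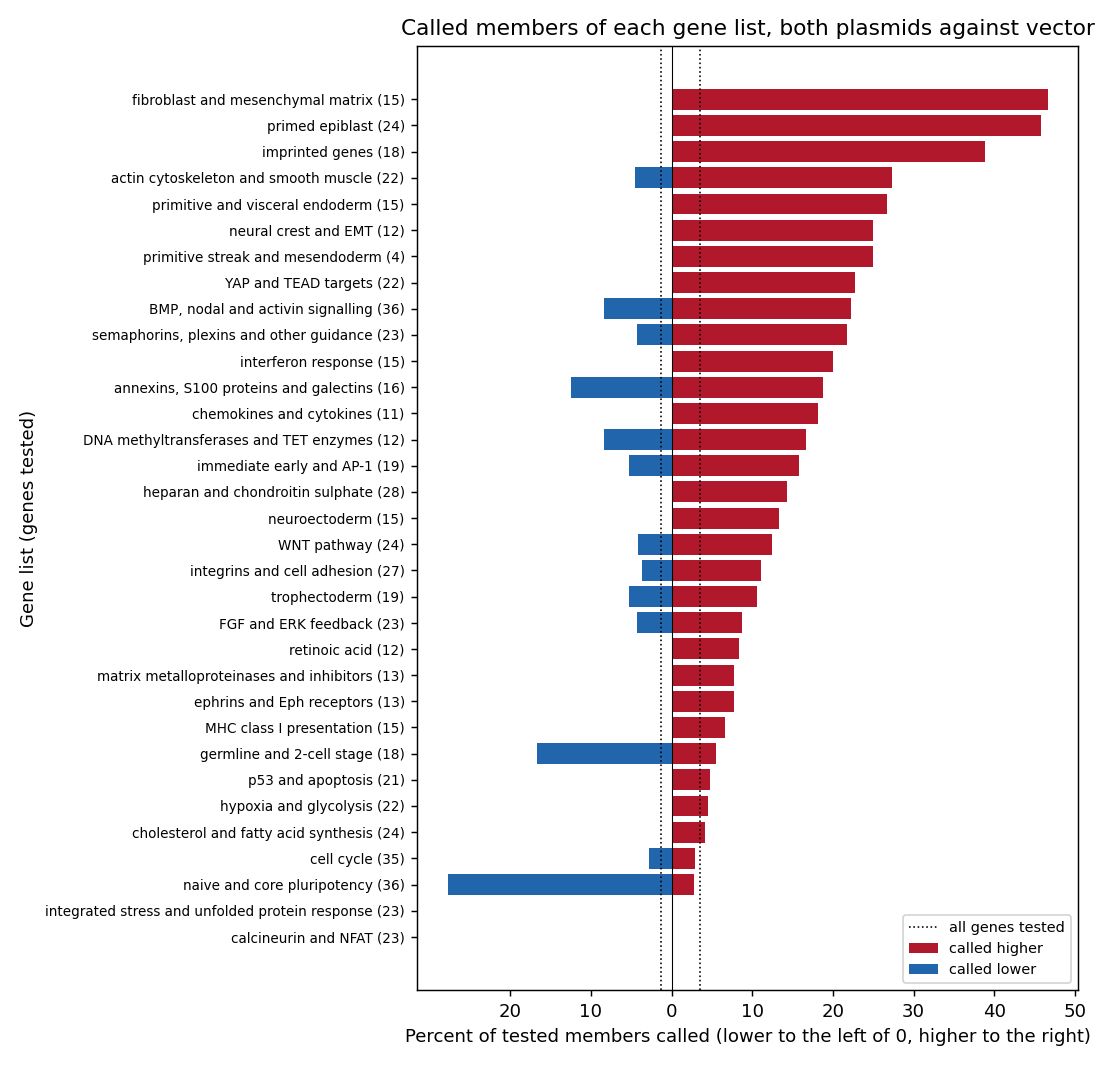
For each of the 33 gene lists, the percent of tested members called higher (red, to the right) and called lower (blue, to the left) in double-label arrays. Dotted lines mark the shares over all genes tested, 3.48% higher and 1.34% lower. The largest share called higher is 46.67%, for fibroblast and mesenchymal matrix, where 15 of 30 members on the array were tested. The largest called lower is 27.78%, for naive and core pluripotency.

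Other probe sets of the called genes gave a second reading from the same RNA, where they passed the filter on low signals; 255 of the 645 of genes called higher and 38 of the 150 of genes called lower did not and are left out of these counts. For genes called higher, 355 of 390 other probe sets, 91.0%, differed in the same direction, and 109 were called in that direction and 0 in the opposite one. For genes called lower, 95 of 112 did, 84.8%, with 9 called in the same direction and 0 in the opposite one. Over all genes tested the share in the same direction was 63.3%. Averaging all probe sets of a gene moved several differences by more than 1.5 times without ending the call: Kitl went from 1.45 to 0.60, Igf2 from 1.47 to 0.69, Sox4 from 0.94 to 0.49 and Apcdd1 from 0.83 to 0.45. Likewise Tpm1 went from 0.76 to 0.41, Ccn1 from 1.83 to 1.055, Col3a1 from 1.63 to 1.08 and Inhbb from -0.89 to -0.58. Baiap2, Msi1, Sparc, Lpp, Kit, Sfrp1, Sema3c and Sema4a were not called with averaged probe sets. Id3, read by only 1 probe set, kept its difference of 1.03 but was not called in that limma fit either (adjusted p = 0.071).

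The knockout arrays are independent of the 6 compared arrays and read the same genes after loss of Foxd3. Of the 391 genes called higher in double-label arrays and tested in the knockout cells, 131 (33.5%) were higher and 85 (21.7%) lower with tamoxifen; these were 7.46% and 4.22% of all genes higher and lower with tamoxifen. Of 153 genes called lower, 44 (28.8%) were higher and 30 (19.6%) lower, or 2.51% and 1.49% of the tamoxifen lists. Over the 11223 genes tested in both, 15.6% were higher and 18% lower, beside 17.5% and 16.9% of all 12093 genes tested in the knockout cells (34.4% called). The fibroblast sums given above and the blood marker sums, 1199 to 1379 with DMSO and 6352 to 7279 with tamoxifen, moved with tamoxifen, and their part in these shares was not tested. Of the 15 leading rises 14 were tested, and 7 were higher and 2 lower with tamoxifen; Col5a2 and Col1a2 were higher by 2.82 and 2.72, and Cdkn1c differed by -0.59. Of the 15 leading falls 14 were tested, and 4 were higher and 4 lower; Lgals3 and Mylpf were higher by 1.47 and 1.04, and Foxd3 differed by -2.08; these examples were picked after their values were seen. In the primed epiblast list 4 of 25 tested genes were higher and 13 lower with tamoxifen, and in the pluripotency list 5 of 36 were higher and 12 lower.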

How the data were processed

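The authors deposited 1 intensity per probe set and array, a linear MAS5 signal as the submitters' processing notes name it; the scaling target was read from the values, and detection calls and scan dates were not used here. Beside 64 controls, the 45101 probe sets divide into 34945 with 1 gene symbol, 932 with several and 9160 with none; 34741 were matched by Entrez number to GRCm38.p6. Where a gene had several probe sets (9010 of 18193), the one with the highest mean log2 value over 18 arrays was used.

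Group means of the 12 transfected arrays were compared by limma (version 3.58.1, R 4.3.3), using lmFit and eBayes with trend, on log2(signal + 32), two-sided, without covariates; the 6 knockout arrays were fitted alone. Python 3.11.15 and matplotlib 3.10.9 made the figures. The fit was tested on simulated data. The compared groups, the 33 gene lists and the tests were chosen with earlier results of these data known. Named genes are the 15 largest rises and falls among called genes whose groups do not overlap, up to 4 called members per list, and Foxd3, Nfatc1 to Nfatc4, Rcan1, Src, Pou5f1, Nanog, Sox2, Klf4, Cdx2, Gata6, Fgf5, Actb and Gapdh; any other is said to be chosen after its values were seen, and Gapdh was used only for its 3' to 5' ratio.

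Residuals of the 18 pairs of arrays with the same replicate number correlated at 0.104 to 0.315, and of the 36 pairs with different numbers at -0.282 to 0.0133, so the numbers were taken to pair the arrays. The main fit left this pairing out and called 559 genes, beside 1122 with the block. The block is therefore given where it changes the call of a named gene or moves a count against vector by more than 1.5 times. Smaller moves of list counts are not given. The alternatives were other offsets, filters, normalizations, probe set choices, sets of arrays, array weights, no variance trend, the block and leaving out each array; centring for the lists was added after seeing the data.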

Additional observations from a re-analysis of the deposited data

How the results depend on the processing

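Beside the 559 genes called (404 higher, 155 lower), the mean of a gene's probe sets gave 341 (242 higher, 99 lower) and the replicate block 1122 (700 and 422). All 18 arrays in 1 fit gave 234 lower, and array weights 239. Fits without 1 array gave 322 to 461 called, 239 to 339 higher and 63 to 122 lower. The causes were not tested. Of 2068 values of named genes under alternatives, 1832 kept direction and call, 226 lost the call, 9 gained it and 1 reversed: Ccnd3, at 0.0174 with the mean of its probe sets. All 15 leading rises and 8 of the 15 leading falls kept their call in all 18 alternatives. Of 363 list medians, 300 moved by less than the spread between arrays. The replicate block changed no other call of a named gene than those of Nanog, Klf4, Nfatc3 and Id1. Folds of genes with a group mean below 65.8 are bounds only.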
